A study of Homo sapiens with 4 samples.

Results

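The loci described here are those of the microRNAs miR-21, miR-221, miR-222 and miR-100, with the transcripts that carry them: MIR222 and MIR221, MIR21 and its host gene VMP1, and MIR100, MIRLET7A2 and MIR125B1 with their host transcript MIR100HG. Members were the probe sets that the platform annotation maps to one of these 8 symbols, all probe sets kept. Each symbol had 1 probe set, so there were 8 probe sets of 53617 in the table and of 16098 with a gene symbol, and all 8 passed the filter on low values. The loci were picked with results of the same comparison known, MIR222 being among its largest differences, so their values are given as a description and carry no test.

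The cells were MDA-MB-231Br, derived from the triple-negative breast cancer line MDA-MB-231, which is the name in the sample titles. Of the 4 arrays, 2 were of cells carrying a short hairpin RNA against YTHDF3 (shYTHDF3), a cytoplasmic reader of N6-methyladenosine on RNA, and 2 of cells carrying a control hairpin (shControl). Both kinds of cells received a lentivirus and went through puromycin selection, per the labels' protocols. Separate cultures are not named in the labels, so SDs and p-values cover only the spread of these 2 samples per group, which may be technical. The level of YTHDF3 was not analysed here, so the labels have no check from it. Values are log2 expression as deposited, and a log2 difference is shYTHDF3 minus shControl.

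A microRNA begins as a primary transcript that folds into hairpins. The Drosha and DGCR8 complex cuts each hairpin out, Dicer trims it to a short duplex, and 1 strand guides an Argonaute protein to messenger RNAs that pair with its seed (bases 2 to 8). MiR-21 and the pair of miR-221 and miR-222 are known as oncogenic microRNAs that are abundant in aggressive breast cancers, with PDCD4 and the cell cycle inhibitor CDKN1B among their known targets. MiR-100, let-7a and miR-125b act on growth signalling and differentiation in a way that depends on the tissue. Probe sets of a transcript array cannot separate primary transcript, hairpin and mature strand, so no value here is a level of a mature microRNA.

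The mature strands below, from RefSeq, are shown to make plain which members share a target code. Their seeds are in capitals, and all 6 hairpin loci were matched in the RefSeq table.
miR-222-3p (from MIR222): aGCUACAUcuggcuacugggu
miR-221-3p (from MIR221): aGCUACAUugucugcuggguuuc
miR-21-5p (from MIR21): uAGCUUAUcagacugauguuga
miR-100-5p (from MIR100): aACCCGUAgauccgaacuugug
let-7a-5p (from MIRLET7A2): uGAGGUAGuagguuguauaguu
miR-125b-5p (from MIR125B1): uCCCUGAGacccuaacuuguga
MiR-222-3p and miR-221-3p have the same seed and the same first 8 letters. The other 4 strands have a seed each, so the 6 loci hold 5 seeds. Let-7a-5p is also encoded by MIRLET7A1 and MIRLET7A3, and miR-125b-5p by MIR125B2, so a signal at these 2 members could include RNA of those copies, which was not tested.

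The hairpins, with the mature strand in capitals, are the stretches of RNA that the hairpin symbols stand for. They show which members lie side by side and on which strand.
MIR222 hairpin (GRCh38.p14 chrX:45747015-45747124, minus strand): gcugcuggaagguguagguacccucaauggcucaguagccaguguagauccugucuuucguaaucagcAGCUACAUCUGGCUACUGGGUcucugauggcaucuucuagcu
MIR221 hairpin (GRCh38.p14 chrX:45746157-45746266, minus strand): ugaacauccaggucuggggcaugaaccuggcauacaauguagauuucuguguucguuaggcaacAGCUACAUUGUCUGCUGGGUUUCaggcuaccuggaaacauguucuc
MIR21 hairpin (GRCh38.p14 chr17:59841266-59841337, plus strand): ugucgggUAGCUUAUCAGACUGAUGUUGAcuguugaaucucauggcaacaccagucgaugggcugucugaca
MIR100 hairpin (GRCh38.p14 chr11:122152229-122152308, minus strand): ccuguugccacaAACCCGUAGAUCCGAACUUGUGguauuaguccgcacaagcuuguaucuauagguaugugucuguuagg
MIRLET7A2 hairpin (GRCh38.p14 chr11:122146522-122146593, minus strand): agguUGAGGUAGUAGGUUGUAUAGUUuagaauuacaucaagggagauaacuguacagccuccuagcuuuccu
MIR125B1 hairpin (GRCh38.p14 chr11:122099757-122099844, minus strand): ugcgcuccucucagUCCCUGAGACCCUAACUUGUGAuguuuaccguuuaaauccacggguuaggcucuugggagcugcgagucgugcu
In GRCh38.p14, 748 bases lie between the MIR222 and MIR221 hairpins, and 5635 between MIR100 and MIRLET7A2. A longer stretch of 46677 bases lies between MIRLET7A2 and MIR125B1. All 5 of these lie on the minus strand, so MIR222 precedes MIR221 in the direction of transcription, and MIR100 precedes MIRLET7A2 and then MIR125B1. The letters GGAC, the core of the known N6-methyladenosine motif, were searched on the RNA strand. They occur in 0 of the 6 member hairpins and in 426 of the 1560 RefSeq hairpins (27.3%), which says only that these letters are not in these windows.

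The markers of the line were checked first. Probe sets of mesenchymal and basal markers averaged 7.01 to 12.3 in shYTHDF3 and 6.80 to 12.4 in shControl arrays, with moesin (MSN) at the top of both ranges. The oestrogen receptor ESR1 stood at 2.91 in shYTHDF3 and 2.84 in shControl arrays, near the filter value of 2.54. The luminal list was not low throughout: its probe sets ran from 2.68 to 8.96 in shYTHDF3 and from 2.66 to 8.45 in shControl arrays, with a KRT18 probe set at the top and EPCAM at 6.70 in both groups. Limma called 0 of the 13 tested luminal and 0 of the 8 tested mesenchymal probe sets, with 1 and 2 at an unadjusted p under 0.05. Leukocyte, fibroblast and endothelial probe sets lay between 2.12 and 2.74 in shYTHDF3 and between 1.98 and 3.08 in shControl arrays. These lists were read only in part. A named probe set was present for 6 of 10 mesenchymal and basal and 12 of 14 luminal genes. It was present for 2 of 7 leukocyte and 4 of 7 fibroblast and endothelial genes.

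All 6 hairpin loci were lower in shYTHDF3 arrays, while VMP1 was not. The log2 differences of the hairpins ran from -2.18 for MIR222 to -0.64 for MIR125B1, with a median of -1.01 over the 6 and of -0.76 over all 8 members, beside a median of 0.01 over the 13716 named probe sets tested. The arrays of the groups did not overlap, on the lower side, for 7 of the 8 members, where this held for 22.6% of all tested probe sets, and for 45.4% on either side. Limma, adjusted over all tested probe sets, called 3 of the 8 members lower, MIR222, MIR21 and MIR100, and 0 higher, where it called 0.744% lower and 0.153% higher of all, 0.897% in sum. At an unadjusted p under 0.05 the 7 members other than VMP1 were lower, beside 8.25% lower and 6.47% higher of all. A log2 difference of at least 1 in size was seen for 3 members, all lower, beside 0.663% lower and 0.168% higher of all. Since the members were chosen from this comparison, nothing is read from these counts. The 3 calls rest on all arrays together: with 1 left out, fewer probe sets passed, both among the members and over the whole table. The log2 difference then ran from -2.42 to -1.93 for MIR222, from -2.14 to -1.45 for MIR100 and from -1.40 to -1.13 for MIR21. With the replicate number as a block limma called 0 members and 26 of all 13716 probe sets. At an unadjusted p under 0.05 that fit had 7 members and 1939 of all. A fit over all 37532 probe sets above the filter, named or not, called 0 members and 19 of all. At an unadjusted p under 0.05 it had 5 members and 4042 of all.

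**Figure D1:**
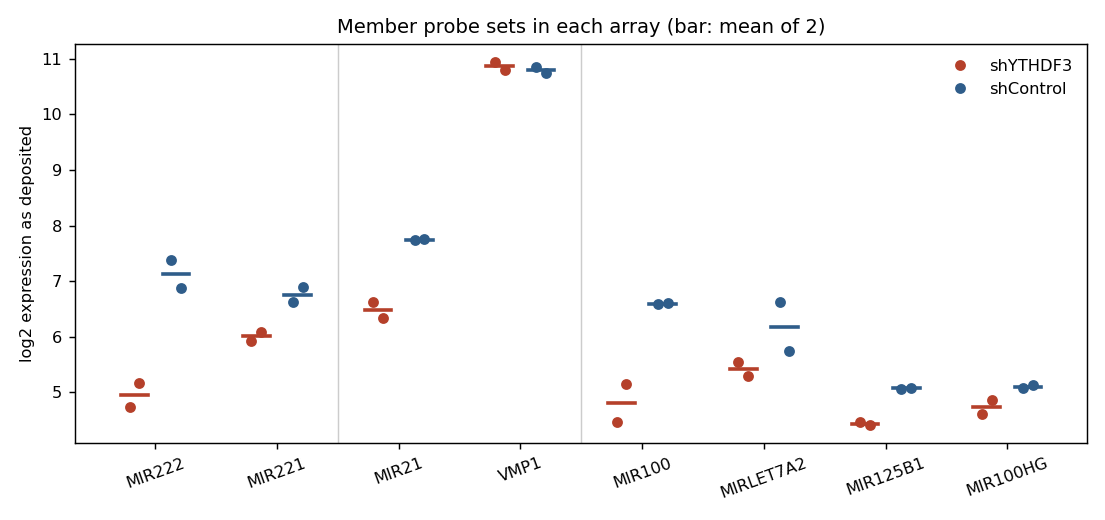
Log2 expression as deposited (vertical axis) of the 8 members (horizontal axis), with 1 point per array, shYTHDF3 in red and shControl in blue, and a bar at the mean of the 2 arrays. The red and blue points are apart for the 6 hairpins and for MIR100HG, and overlap for VMP1.

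The X-linked cluster came first in size. MIR222 stood at 4.74 and 5.17 in the shYTHDF3 arrays, against 7.38 and 6.88 in the shControl arrays. Over the 4 pairings of arrays, shYTHDF3 minus shControl ran from -2.64 to -1.71, with no overlap. The log2 difference of means was -2.18 (SE 0.21), a 4.52-fold lower value, the 18th most negative of the 13716 tested probe sets.

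MIR221 stood at 5.92 and 6.09 in the shYTHDF3 arrays, against 6.63 and 6.89 in the shControl arrays. Both shYTHDF3 values lay below both shControl values, with a log2 difference of -0.75 (SE 0.15) or 1.69-fold lower. The direction was that of MIR222 but the size was not. MIR222 minus MIR221, taken within each array, averaged -1.05 ± 0.19 in shYTHDF3 and 0.37 ± 0.53 in shControl arrays (SD, n = 2 each), so the log2 difference of MIR222 was 1.42 larger in size (SE 0.40 from the 4 arrays). With 1 array left out at a time this gap between the log2 differences ran from -1.80 to -1.04. The host transcript MIR222HG was not analysed here.

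MIR21 stood at 6.62 and 6.35 in the shYTHDF3 arrays, against 7.75 and 7.75 in the shControl arrays. The shControl arrays were almost equal, and both shYTHDF3 arrays were more than 1 log2 unit lower. The log2 difference was -1.27 (SE 0.14), a 2.41-fold lower value.

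VMP1 encodes an endoplasmic reticulum membrane protein needed to form autophagosomes, and the MIR21 hairpin lies in its locus, downstream of its own known promoter. VMP1 stood at 10.94 and 10.81 in the shYTHDF3 arrays, against 10.85 and 10.75 in the shControl arrays. These values overlapped, with a log2 difference of 0.07 (SE 0.13). Host and hairpin thus had unlike differences: MIR21 minus VMP1, taken within each array, averaged -4.39 ± 0.10 in shYTHDF3 and -3.05 ± 0.07 in shControl arrays (SD, n = 2 each). The change in this quantity was -1.34 (SE 0.09). This SE, like those of the other gaps taken within each array, comes from the spread of the 4 arrays alone. The SEs of single members come from limma, which also draws on the spread of other probe sets, so the 2 kinds cannot be compared. Probe sets may also compress a change to unlike degrees, and VMP1 and MIR21 had unlike mean levels of 10.84 and 7.12. Whether this adds to the gaps in size between members was not tested.

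MIR100, the first hairpin of its cluster in the direction of transcription, stood at 4.46 and 5.15 in the shYTHDF3 arrays, against 6.59 and 6.60 in the shControl arrays. The shControl arrays were nearly equal, while the shYTHDF3 arrays differed by 0.69 from each other. The log2 difference was -1.79 (SE 0.22), a 3.46-fold lower value.

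MIRLET7A2, a source of the differentiation-linked let-7a, stood at 5.55 and 5.29 in the shYTHDF3 arrays, against 6.63 and 5.74 in the shControl arrays. The groups were apart by only 0.19 at their nearest, and the shControl arrays differed by 0.89 from each other, more than the log2 difference of means of -0.76 (SE 0.28). Without shControl replicate 1 the log2 difference was -0.32, and without shControl replicate 2 it was -1.21.

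MIR125B1 stood at 4.46 and 4.42 in the shYTHDF3 arrays, against 5.07 and 5.08 in the shControl arrays. The arrays of each group were close, and the 4 pairings of arrays gave -0.66 to -0.61. The log2 difference was -0.64 (SE 0.12), or 1.55-fold lower.

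MIR100HG, the long noncoding host transcript of these 3 hairpins, stood at 4.61 and 4.86 in the shYTHDF3 arrays, against 5.07 and 5.12 in the shControl arrays. Its groups did not overlap, but its log2 difference of -0.36 (SE 0.14) was the smallest of the cluster and lay within the middle 90% of all tested probe sets, which spanned -0.46 to 0.39. The 4 members therefore shared a direction and spread over 1.43 log2 units, between MIR100HG and MIR100. Relative to MIR100HG within each array, the log2 difference was -1.43 (SE 0.22) for MIR100, -0.40 (SE 0.53) for MIRLET7A2 and -0.27 (SE 0.14) for MIR125B1. Only for MIR100 was this gap several times its SE, and these SEs come from the 4 arrays alone. With 1 array left out at a time the spread of the 4 was 1.21 to 1.65.

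**Figure D2:**
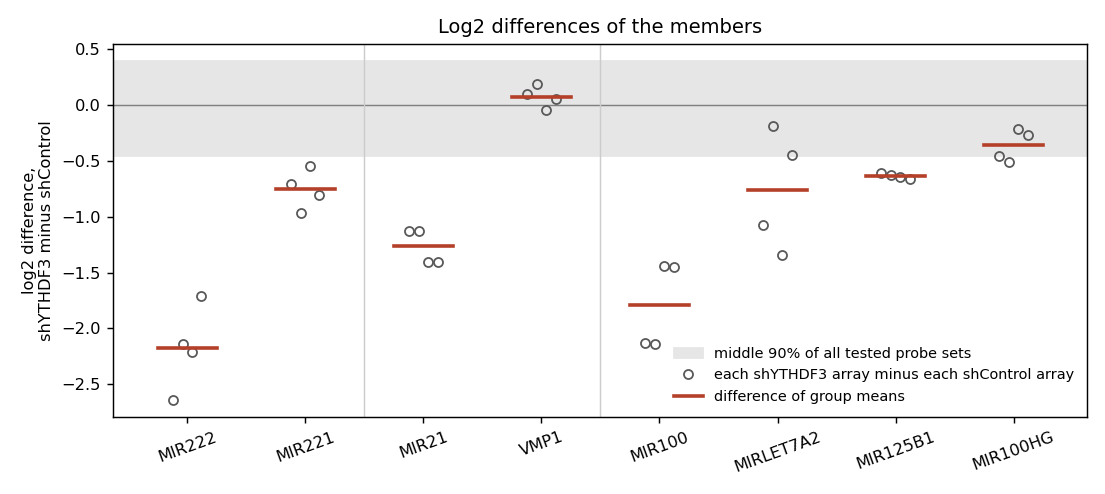
Log2 difference, shYTHDF3 minus shControl (vertical axis), of the 8 members, with circles for each shYTHDF3 array minus each shControl array and a red bar for the difference of means. The grey band holds the middle 90% of the 13716 tested probe sets (-0.46 to 0.39), and of the 8 bars those of VMP1 (0.07) and MIR100HG (-0.36) lie in it.

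Genes that lie near the loci on the chromosome were read from a list of neighbours. Of the listed neighbours, 7 of 14 near MIR21, 11 of 16 near MIR221 and MIR222 and 7 of 13 near MIR100HG had a named probe set. TUBD1, RPS6KB1, PTRH2 and CLTC, listed near MIR21, were not analysed here. Of 7 tested probe sets of genes near MIR21 and VMP1, limma called 0, with 3 at an unadjusted p under 0.05. These were BCAS3, HEATR6 and DHX40, at log2 differences of -0.48, -0.37 and -0.39, and the median was -0.26. Of 9 near MIR221 and MIR222, limma called 0, with 2 at an unadjusted p under 0.05. CHST7, a sulfotransferase gene, stood at 5.37 ± 0.27 in shYTHDF3 and 4.61 ± 0.05 in shControl arrays (SD, n = 2 each), and the mitophagy receptor gene FUNDC1 had a log2 difference of -0.35. Of 6 near MIR100HG, limma called 0, with 0 at an unadjusted p under 0.05, and the differences ran from -0.25 to 0.25. The log2 differences of MIR222, MIR21 and MIR100 exceeded those of every tested neighbour on the list of their locus in size. The loci were picked with results of this comparison known, so nothing is read from this.

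Set among other microRNA loci, MIR222, MIR100 and MIR21 were at -2.18, -1.79 and -1.27, against a median of -0.03 and a range of -1.52 to 0.93 over 639 tested probe sets of other loci. MIR222 and MIR100 lay below that whole range, a description only, since the members were picked with results of this comparison known. Of the 6 hairpin members 3 were lower by at least 1 log2 unit, against 8 of the 639 and 1 of the 164 other probe sets with a mean level at or above that of MIR125B1, the dimmest hairpin member. That one was MIR503, named after its values were seen, at 5.19 ± 0.38 in shYTHDF3 and 6.37 ± 0.20 in shControl arrays (SD, n = 2 each). Limma called 5 of the 639 lower and 0 higher, and 3 of those 5 are MIR4454 probe sets with identical values, also named after they were seen. A list of other oncogenic or tumour-suppressive microRNA loci and hosts had 19 tested probe sets, of which 14 were negative, with a median of -0.12. Limma called 0 of them, with 5 at an unadjusted p under 0.05, 4 of them lower. Those of smallest p were MIR23A at -0.73, MIR210 at -0.55, MIR15A at -0.81 and MIR146A at 0.47.

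**Figure D3:**
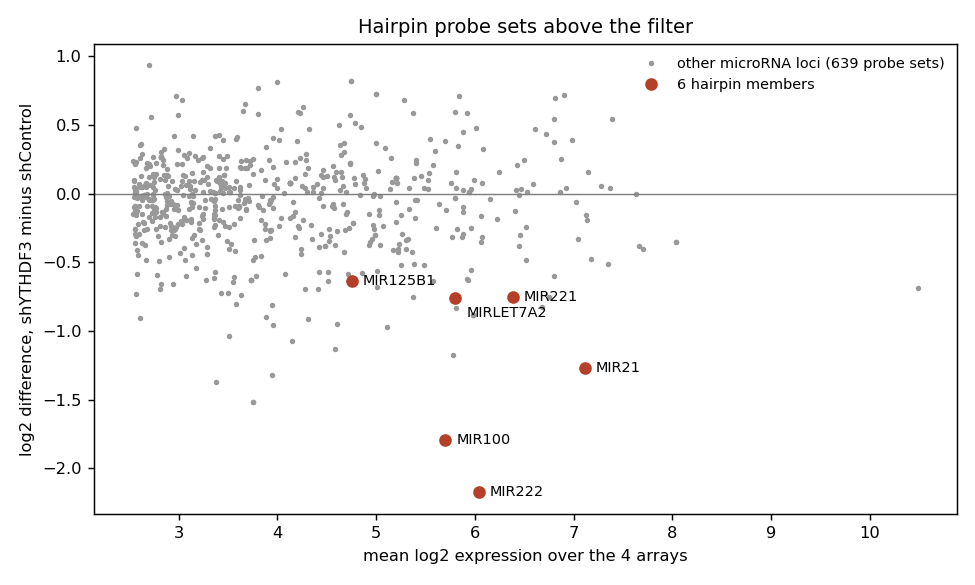
Log2 difference, shYTHDF3 minus shControl (vertical axis), against the mean log2 expression over the 4 arrays (horizontal axis) for the 6 hairpin members in red and 639 probe sets of other microRNA loci in grey, all above the filter. MIR222 and MIR100 lie below all grey points.

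Loci that share a seed with a member but lie elsewhere in the genome were compared next. The miR-100 seed ACCCGUA is also that of MIR99A, at 3.76 ± 0.41 in shYTHDF3 and 3.98 ± 0.29 in shControl arrays, and of MIR99B, at 5.97 ± 0.40 and 5.94 ± 0.46 (SD, n = 2 each). Both overlapped between groups. The miR-21 seed AGCUUAU is also that of MIR590, at a log2 difference of -0.08. The let-7 seed GAGGUAG had 10 other tested loci, with a median log2 difference of -0.09. MIR98, at 5.26 ± 0.01 in shYTHDF3 and 5.89 ± 0.35 in shControl arrays (SD, n = 2 each), had the most negative log2 difference of the 10 at -0.64, and MIRLET7E the most positive at 0.39. MIRLET7A1 and MIRLET7A3, which give the same mature let-7a-5p as MIRLET7A2, were at 0.01 and -0.12. Of the loci with the miR-125 seed CCCUGAG only MIR125B1 passed the filter. MIR221 and MIR222 were the only loci with the seed GCUACAU in the RefSeq table.

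**Figure D4:**
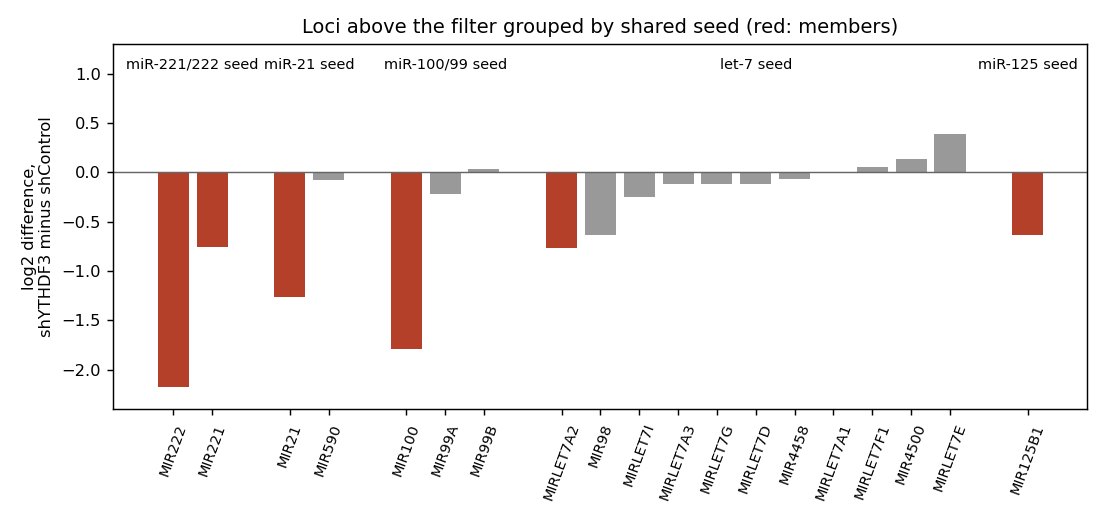
Log2 difference, shYTHDF3 minus shControl (vertical axis), of each locus above the filter that shares a seed with a member, grouped by seed along the horizontal axis, members in red and other loci in grey. MIR222, MIR21 and MIR100 are the 3 longest bars, and MIR99A, MIR99B and MIR590 stay between -0.22 and 0.03.

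The cluster of miR-100, let-7a-2 and miR-125b-1 has paralogous clusters that carry related hairpins, one of them in the host transcript MIR99AHG. Of 8 probe sets of these clusters 5 were tested, limma called 0, with 1 at an unadjusted p under 0.05 (MIRLET7E), and the median was 0.03. MIR99AHG stood at 4.60 in shYTHDF3 and 4.81 in shControl arrays and overlapped between groups. MIR99B and the neighbouring SPACA6 had log2 differences of 0.03 and 0.23.

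Of 26 listed genes of microRNA processing and silencing 14 were tested, mostly cofactors. DROSHA, DICER1 and the Argonaute genes were not analysed here. Of the 14 tested probe sets limma called 0, with 1 at an unadjusted p under 0.05, and the median was 0.06. That 1 was DGCR8, the Drosha partner that binds the hairpin, at 5.80 ± 0.18 in shYTHDF3 and 5.21 ± 0.05 in shControl arrays (SD, n = 2 each). The splicing and decay factor KHSRP had a log2 difference of 0.29, the hairpin exporter XPO5 0.14 and DDX5, a helicase that works with Drosha, 0.13.

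Reported targets of the member microRNAs, from a list chosen with results of this comparison known, had medians near that of all tested probe sets. The balance of signs differed between the lists and was not tested. Of all tested probe sets 48.8% were negative. For targets of miR-221 and miR-222 the median was -0.06 over 19 tested probe sets, of which limma called 1 lower and 0 higher. The called one was DDIT4, an inhibitor of mTORC1, at 6.49 ± 0.14 in shYTHDF3 and 8.63 ± 0.14 in shControl arrays (SD, n = 2 each; log2 difference -2.14, adjusted p = 0.0011 from limma). Of the 19, 12 were negative and 7 positive. At an unadjusted p under 0.05, 2 of the 19 were lower and 2 higher. The cytokine signalling inhibitor SOCS3 was at 0.79 (adjusted p = 0.095 from limma) with a second probe set at 0.42, and the transcription factor gene FOXO3 at 0.61 with a second at 0.13. The tested probe set of BMF was at -0.34.

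For miR-21 targets the median was 0.01 over 20 tested probe sets, several of them DAXX probe sets with near-equal values. Of the 20, 9 were negative and 11 positive. Limma called 0, and 5 had an unadjusted p under 0.05, 2 lower and 3 higher. The cell cycle phosphatase gene CDC25A was at 0.81, the ubiquitin ligase gene PELI1 at -0.65, the translation inhibitor gene PDCD4 at -0.45 and BCL2 at 0.37. For miR-100 and miR-99 targets the median was 0.05 over 11 probe sets, 2 of them negative and 9 positive. Limma called 0, and 3 had an unadjusted p under 0.05. Both probe sets of AKT1, a kinase upstream of mTORC1, were positive at 0.51 and 0.49, and the mitotic kinase gene PLK1 was at 0.31. For let-7 targets the median was 0.04 over 20, 5 of them negative and 15 positive. Limma called 0, and 5 had an unadjusted p under 0.05. They included CDC25A, which stands in both lists, MYC at -0.63 and the cyclin gene CCND1 at 0.49. For miR-125 targets the median was 0.00 over 14, 7 of them negative and 7 positive. Limma called 0, and 3 had an unadjusted p under 0.05, with the kinase gene MAP3K11 at 0.64. Transcript levels do not show repression of translation, which was not measured.

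**Figure D5:**
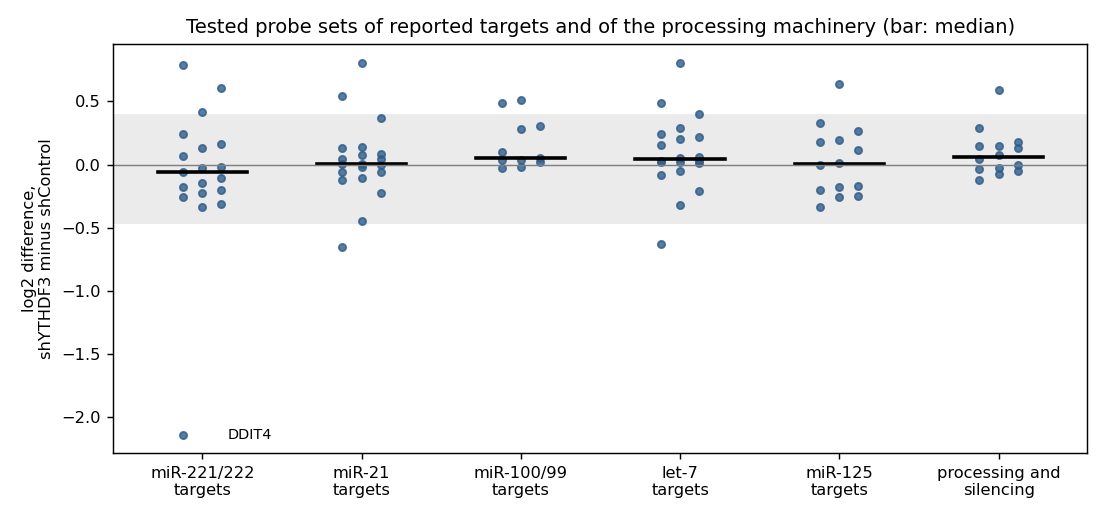
Log2 difference, shYTHDF3 minus shControl (vertical axis), of the tested probe sets of reported microRNA targets and of the processing and silencing genes (horizontal axis), with a bar at each median and a grey band for the middle 90% of all tested probe sets. The medians lie between -0.06 and 0.06, and DDIT4 at -2.14 stands alone.

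Transcription factors reported to act on these loci had a median of -0.06 over 27 tested probe sets, 15 of them negative and 12 positive. At an unadjusted p under 0.05, 5 were lower and 2 higher. Limma called 1 lower, EGR1, and 0 higher. One probe set of this immediate early gene stood at 5.29 ± 0.43 in shYTHDF3 and 7.54 ± 0.05 in shControl arrays (SD, n = 2 each; log2 difference -2.25, adjusted p = 0.0048 from limma), while its second was at -0.54. The AP-1 subunit gene FOSL1, a reported activator of miR-221 and miR-222, was at 10.59 ± 0.10 in shYTHDF3 and 10.98 ± 0.08 in shControl arrays, at -0.39. MYC was at -0.63, and ZEB1, a repressor of epithelial genes, at -0.47. The 2 higher ones were JUN at 0.33 and NFKB1 at 0.32.

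The tested probe sets whose 4 values ran closest to a member's, by Euclidean distance after subtracting each mean, were found for 5 members. For MIR222 they were EGR1 (distance 0.33), CST4 and ERO1B, for MIR221 ANKRD37 (distance 0.06), LOC100507412 and DUSP16, and for MIR21 ASNS (distance 0.07), ZNF449 and CDK2AP2. For MIR100 they were HAS2 (distance 0.23), HSPA6 and TRIB3, and for MIR100HG NCR2 (distance 0.03), AGMO and RUSF1. Over 4 arrays in 2 groups this likeness mostly measures a like difference between the groups. The neighbours of MIR222, MIR21 and MIR100 had log2 differences of -2.25 to -1.18, among them the asparagine synthetase gene ASNS at -1.32 and the hyaluronan synthase gene HAS2 at -1.57.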

How the data were processed

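The authors deposited log2 expression values for 53617 probe sets on 4 Affymetrix arrays. Per the submitters' processing notes they used RMA, and no source used here gives its settings, the build or the probe annotation. That method removes array-wide shifts and compresses weak signals. Precision is limited by the number of arrays. Gene names came from GEO's platform annotation (16098 probe sets with 1 symbol, 0 with several, 37519 unnamed), and all 16098 Entrez identifiers matched RefSeq. Named probe sets were tested when their mean over the 4 arrays was at or above the 30th percentile of the whole table (2.54), which left 13716. shYTHDF3 was compared with shControl in R 4.3.3 with limma 3.58.1 (lmFit, eBayes, 2-sided, no covariates; Benjamini-Hochberg, threshold 0.05; 2 residual and 5.1 prior degrees of freedom). The smallest 2-sided p of an exact permutation is 0.333 here.

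On simulated data of the same 13716 probe sets, limma recovered 73% of 100 changed by 1 and 98% of 100 changed by 2 on the log2 scale. Of its 177 calls there, 6 were false. These rates hold for the simulated spread and may not hold for separate cultures. The members, lists and tests were chosen with earlier results of these data known. Named genes were all members, the 3 nearest to each of 5 members, and, per list, called genes and up to 4 of smallest p. Markers, loci that share a seed, JUN and NFKB1 are named outside this rule. Sequences are from RefSeq (GRCh38.p14).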

Additional observations from a re-analysis of the deposited data

How the results depend on the processing

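Alternatives covered the filter, the probe sets fitted, the normalization, the variance model, the threshold, a replicate block and leaving out each array. Against 123 of 13716 named probe sets and 3 members past limma's threshold, a fit over all 37532 probe sets above the filter, named or not, called 19 and 0. An intensity trend in the variance model called 396, and a robust fit with that trend 423, each with 4 members (MIR221 added). A threshold of 0.1 gave 259 and 5 members (MIR125B1 and MIR221 added). The replicate block gave 26 and 0 members. Same-numbered arrays deviated together with a correlation of only 0.038, so the numbers were not taken to pair the samples. With 1 array left out the counts ran from 14 to 43, and from 0 to 2 members; the lone array of a group is then assumed to vary like the other group's. The other filters, 1 probe set a gene, quantile normalization and centring on medians gave 84 to 181 and kept the same 3 members. Every member kept the sign of its log2 difference under both normalizations and with each array left out, VMP1 included at 0.01 to 0.14.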

Other observations

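In both clusters the hairpin that comes first in the direction of transcription had the most negative log2 difference: MIR222 at -2.18 before MIR221 at -0.75, and MIR100 at -1.79 before MIRLET7A2 at -0.76 and MIR125B1 at -0.64. This was noticed after the values were seen. Other pairs were formed from hairpins tested with 1 probe set each, taking those next in order on 1 strand and within 10 kb. Hairpins left out may lie between them. Among these 55 pairs the first was the more negative in 29. The log2 differences of MIR222 and MIR221 were 1.42 apart and those of MIR100 and MIRLET7A2 1.03, beside a median of 0.28 over the 55 pairs, of which 1 was at least 1 apart. That pair was MIR15A, at 3.18 ± 0.35 in shYTHDF3 and 3.99 ± 0.31 in shControl arrays, and MIR16-1, at 3.38 ± 0.04 in shYTHDF3 and 3.11 ± 0.11 in shControl arrays (SD, n = 2 each). In only 5 of the 55 pairs were both hairpins as bright as the dimmest hairpin member, and there the median was 0.66 and the largest 0.90. MIR222 and MIR100 were picked with results of this comparison known and the other pairs were not. The sizes of the gaps are therefore not alike in how they were chosen, and nothing is read from them. Pairs of 1 cluster share neighbours and are not independent.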
